A study of Mus musculus with 18 samples.

Results

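The genes described here are 37 genes of glycolysis and of the transcriptional response to low oxygen, taken by their symbols from a count table of 55487 gene IDs in mouse BV2 cells, an immortalised microglial line. All 37 symbols were present, on 38 IDs because Aldoa stands on 2, and 34 of the 37 had enough reads to be tested. By role 3 act in glucose uptake and trapping, 8 in the hexose phosphate steps, 7 in the triose steps and 4 at pyruvate and lactate. The rest are HIF-1 alpha with 2 of its hydroxylases, 2 mitophagy receptors and 10 other targets of the hypoxia-inducible factor (HIF).

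Glycolysis takes glucose in through a transporter, traps it as a phosphate, splits it into trioses and ends in pyruvate, which is either exported as lactate or oxidised in mitochondria. HIF is a dimer whose alpha subunit is hydroxylated by the EGLN enzymes when oxygen is present and then destroyed through VHL, so HIF-1 alpha is controlled largely at the protein and not at the RNA level. When stabilised, HIF raises transcription of many glycolytic genes, of lactate export, of PDK1, which restrains pyruvate oxidation in mitochondria, and of its own hydroxylases. In microglia and macrophages it is known for accompanying inflammatory activation.

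RNA from 18 libraries was sequenced, 3 for each combination of the line labels BAK1-KD (KD) and NC with a control, a 12 h or a 24 h treatment. The agent was oxyhemoglobin, oxygen-bound hemoglobin as blood releases it, and its dose is labelled 10 mM. The 6 groups are called KD control, KD 12 h, KD 24 h, NC control, NC 12 h and NC 24 h. Cells of every group had been plated 12 h beforehand in serum-containing medium. The labels do not say how BAK1 was knocked down or whether a line is 1 clone, and no untreated libraries at 12 h or 24 h were analysed here, so treatment and time in culture cannot be told apart.

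Bak1, the targeted gene, had 39 counts in the 9 libraries labelled KD and 25 counts in the 9 libraries labelled NC, with 1 to 12 and 0 to 7 counts per library. Its own reads do not show a knockdown and the line names below are labels. Library totals ran from 4361313 to 6008810 counts. All 14 microglia and macrophage markers had counts, 10 of them in every library, with summed levels of 599 to 836 CPM (counts of a gene scaled to a library of fixed size) in KD and 473 to 640 CPM in NC libraries. Of 7 neuronal markers 5 were at 0 in every library, as were 4 of 7 astrocyte, 3 of 7 oligodendrocyte, 3 of 9 fibroblast and endothelial and 5 of 8 erythroid markers, 4 globin genes among the last. The microglia markers were uneven over all libraries: Spi1, Ptprc and Trem2 had 27132, 12784 and 10258 counts. P2ry12, Aif1, C1qa, Tyrobp and Cx3cr1 had 8, 43, 124, 187 and 191 counts. Of the other lists, Alas2, S100b, Tubb3 and Mbp had 445, 425, 368 and 353 counts. Mitochondrially encoded genes took 0.6% to 2.37% of counts and the single gene CT010467.2 took 12.89% to 25.27%. On the second principal component the 6 libraries numbered 2 each had the lowest score of their group, and calls lost without these 6 are named beside the genes concerned. With RNA from whole cultures, fewer cells expressing a gene and less RNA per cell cannot be told apart.

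Levels were first compared between genes per length. The gene lengths deposited with the table equalled the sum of exon lengths over all annotated transcripts for 36 of the 38 IDs. Shared exons are then counted repeatedly, as for Gapdh with 12297 bases, against 4133 bases of merged exons. TPM, a level per length, was therefore recomputed from the counts on merged exons. On that scale Pkm, the pyruvate kinase of the last glycolytic step, was highest at a mean of 1002 TPM over 18 libraries (range 711 to 1332). Pgam1, phosphoglycerate mutase, followed at 579 TPM (424 to 831), and the ranges of Pkm and Pgam1 overlapped. Tpi1, triose phosphate isomerase, averaged 326 TPM and Eno1, enolase, 297 TPM, and their ranges overlapped.

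Among the member hexokinases, phosphofructokinases, aldolases, enolases and lactate carriers, 1 gene of each set held most of the level. The relatives Pfkfb3 and Pfkfb4 were nearer each other, at 4.71 TPM (2.58 to 7.18) and 6.99 TPM (4.63 to 9.35). Hk2 averaged 136 TPM (88.8 to 169.9) and Hk1 8.26 TPM (5.38 to 11.0), both hexokinases. Among phosphofructokinases, Pfkl averaged 166 TPM (111 to 241), Pfkp 63.8 TPM (48.9 to 110.2) and Pfkm 0.127 TPM. Aldoa, on its main ID, averaged 42.3 TPM and Aldoc 6.60 TPM, and Eno2, the neuronal enolase, had 4 counts in all 18 libraries. Of the lactate carriers, Slc16a1 (MCT1) averaged 269.6 TPM (162 to 346) and Slc16a3 (MCT4) 31.3 TPM (21.9 to 43.8). Among the HIF genes outside glycolysis, Egln3, Ndrg1, Egln1 and Bnip3 averaged 323, 237, 227 and 217 TPM with overlapping ranges, whereas Vegfa averaged 5.57 TPM and Hif1a 8.11 TPM.

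**Figure D1:**
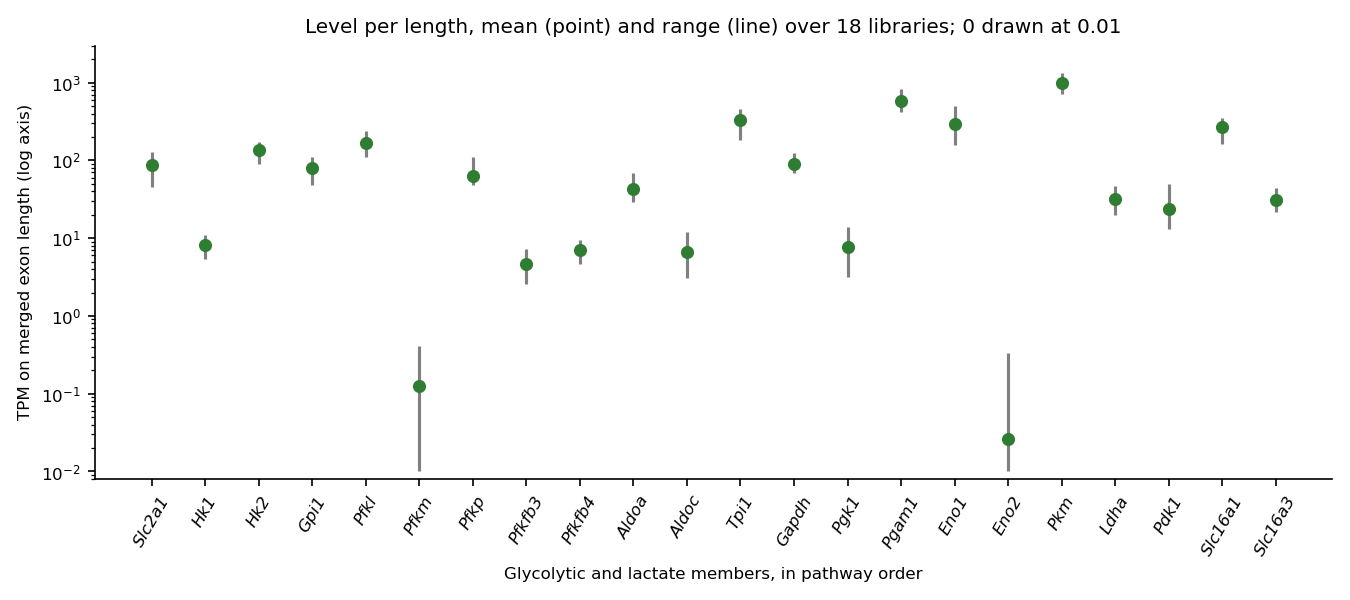
Level per length of the 22 glycolytic and lactate genes in pathway order, in TPM on merged exon length (log axis), as the mean over 18 libraries (point) and the lowest to highest library (line). Pkm averages 1002 TPM and Pgam1 579 TPM, while Pfkm and Eno2 lie below 1 TPM.

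Several glycolytic genes have near-identical copies elsewhere in the genome, and reads could be split between them. Named copies of Pgk1 held 70.6% of the summed reads of gene and copies, 1311 counts on Pgk1-rs7 beside 547 on Pgk1 itself. For Ldha the share was 33.3%, for Pgam1 6.93%, for Tpi1 6.67%, for Gapdh 2.41%, for Gpi1 1.1% and for Aldoa 0.179%. Values of these 7 genes, and above all those of Pgk1 and Ldha, are uncertain for that reason. Eno1 had 1 named copy, with 0 counts. Counts on a copy do not show how many reads of its gene were lost. Eno1 and the genes with low shares are therefore not shown to be unaffected. Only copies named after their gene were searched, so copies under other names were missed and the shares may be too low. Pkm was not among the genes searched.

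Treatment was compared with control within each line by the quasi-likelihood test of edgeR, with p-values adjusted by the Benjamini-Hochberg method over 15996 tested genes and called under 0.05. In both lines Pdk1, Egln1, Ndrg1, Ankrd37 and Kdm3a, all HIF targets, were called lower and the lactate carrier Slc16a1 higher. Other hypoxia-induced genes, read as a separate list, were called in both directions, as given below. Slc2a1 and Hk2 of glucose uptake were called higher in KD cells and in no NC comparison, where of this group Hk1 alone passed, at 12 h. These calls are from the fit without a replicate term, and in that fit most glycolytic enzymes passed in neither line. More members passed with that term, as given below. Among them were the enzymes Pfkl, Aldoc, Pgam1, Gapdh, Tpi1 and Eno1, so most tested glycolytic enzymes then passed in at least a single comparison. Slc2a1 and Hk2 then passed in NC cells too. In KD cells at 12 h, 4 of the 34 rose and 4 fell, 23.5% in all, where 16% of all tested genes were called, 7.93% higher and 8.06% lower. In KD cells at 24 h 2 rose and 5 fell, 20.6%, where 9.59% of all tested genes were called, 5.5% higher and 4.09% lower. In NC cells at 12 h 2 rose and 8 fell, 29.4%, where 12.2% of all tested genes were called, 6.69% higher and 5.55% lower. In NC cells at 24 h again 2 rose and 8 fell, 29.4%, where 7.57% were called, 4.66% higher and 2.91% lower. In KD cells at 12 h equal numbers of members rose and fell, and over all tested genes the 2 shares were also near each other. In the other 3 comparisons the share that rose is close to that over all genes and the share that fell is above it. The members were chosen with earlier results of these data known, so these shares are not independent of the data. The median log2 fold change of the members was -0.17, -0.25, -0.14 and -0.31 in these 4 comparisons in the same order. The medians of all tested genes lay between -0.01 and 0.00 there. Comparisons of a line at 12 h and 24 h share its control libraries. Summed microglia markers were 785 to 810 CPM at 12 h and 599 to 617 CPM at 24 h in KD libraries, against 765 to 836 CPM in KD control. In NC they were 568 to 640 CPM at 12 h and 473 to 504 CPM at 24 h, against 562 to 596 CPM in NC control. Summed fibroblast and endothelial markers were 4.76 to 8.65 CPM at 12 h and 8.4 to 12.8 CPM at 24 h in KD libraries, against 3.44 to 6.93 CPM in KD control. In NC they were 4.94 to 8.02 CPM at 12 h and 6.49 to 9.19 CPM at 24 h, against 1.76 to 2.7 CPM in NC control. Oligodendrocyte markers summed to 2.11 to 4.23 CPM at 12 h and 3.53 to 4.25 CPM at 24 h in KD libraries, against 6.08 to 8.58 CPM in KD control, and overlapped in NC. Astrocyte markers summed to 5.15 to 8.18 CPM in KD 24 h libraries, against 1.82 to 5.02 CPM in KD control, and to 7.39 to 8.03 CPM in NC 12 h libraries, against 2.94 to 5.44 CPM in NC control. Neuronal markers summed to 8.06 to 10.1 CPM in KD 12 h libraries, against 4.68 to 5.94 CPM in KD control. Mitochondrially encoded genes took 0.6% to 0.97% of counts in NC 12 h libraries, against 1.06% to 1.55% in NC control, and CT010467.2 took 13.11% to 17.18%, against 17.39% to 21.46%. Both overlapped their controls in the other 3 treated groups. The part of any of these in the results below was not tested.

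With replicate number added as a blocking term, these 4 comparisons called 16 (8 up, 8 down), 16 (7 up, 9 down), 16 (6 up, 10 down) and 18 (4 up, 14 down) of the 34. Over all tested genes that fit called 28.8%, 21.5%, 24.7% and 18.9% in this order. Without KD control replicate 3 the KD counts were 4 at 12 h and 3 at 24 h. The KD count was 5 at 12 h without KD 12 h replicate 2, and 3 at 24 h without KD 24 h replicate 2. The NC count was 6 at 12 h without NC 12 h replicate 1, and 6 at 24 h without NC control replicate 1 or without NC 24 h replicate 2. Other settings that ended a call of a gene named below are given beside it: no filter on low counts, a filter of 5 CPM, a fit of the compared groups alone, limma on TPM in 3 settings (pseudocounts of 1 and 0.1, and 1 with a mean TPM of at least 1), and all libraries but the 6 numbered 2, the last chosen after the data were seen. Over all 12 comparisons made, 20 of the 43 calls among these genes were kept in every fit that left out 1 library.

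**Figure D2:**
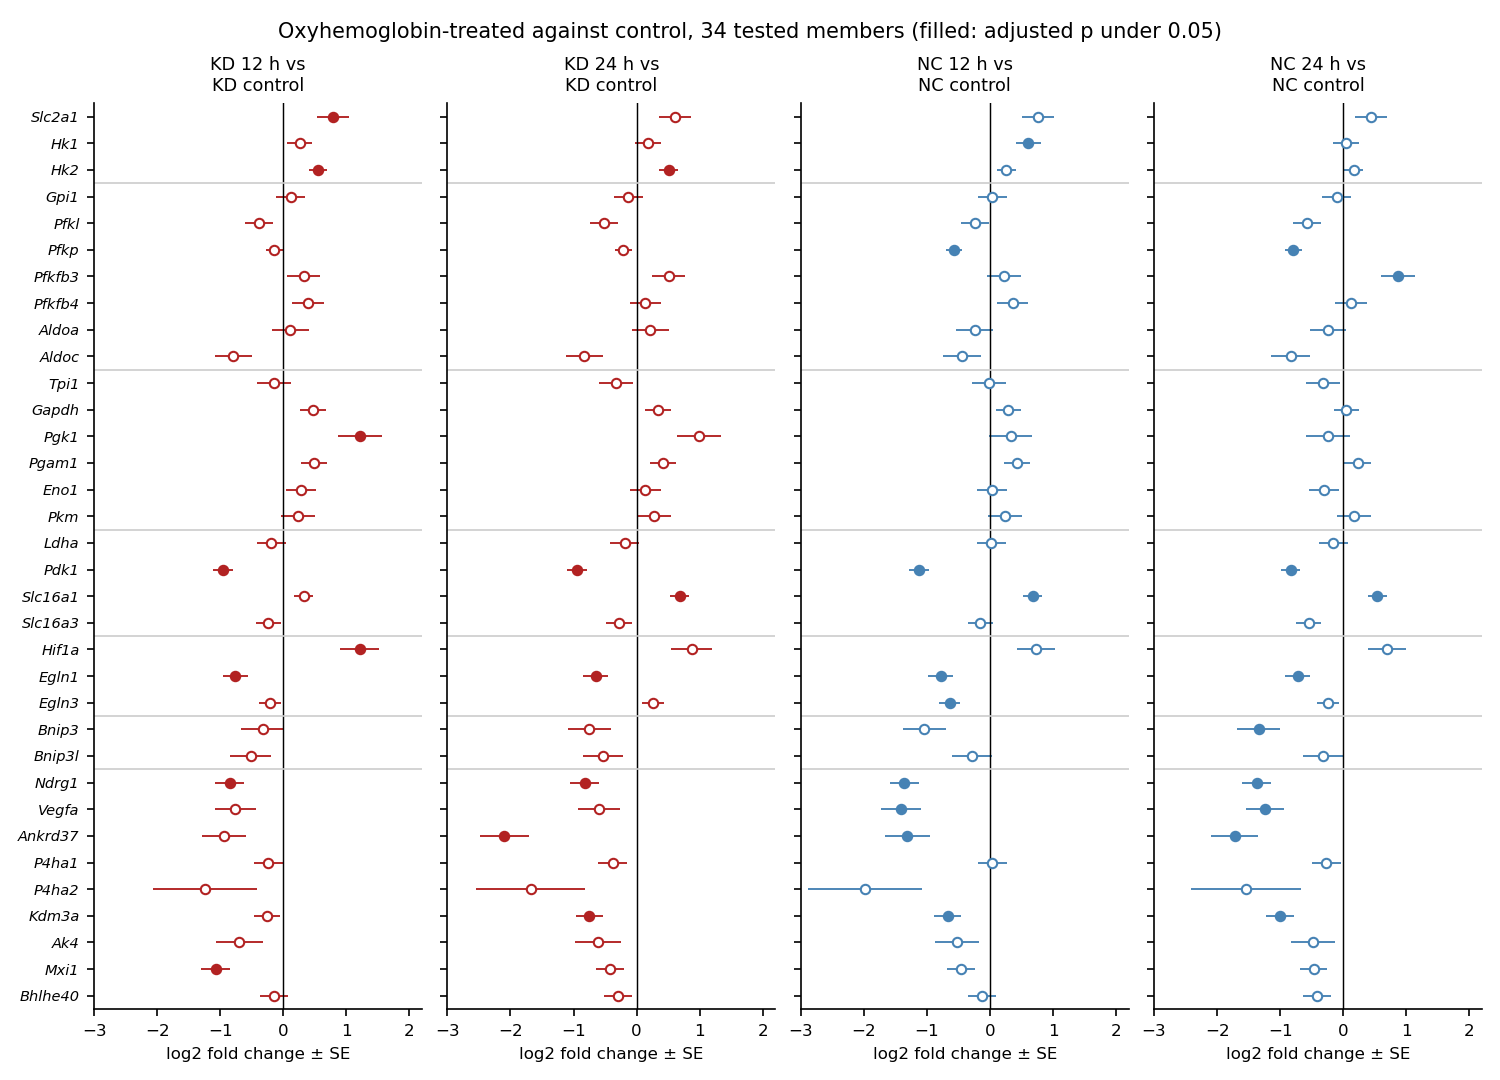
Log2 fold change with its standard error (x axis) of the 34 tested genes (y axis, by role, grey lines between roles), treated over control, for KD at 12 h and 24 h (red) and NC at 12 h and 24 h (blue). Filled points passed an adjusted p of 0.05 without the replicate block. Pdk1, Egln1 and Ndrg1 are filled below 0 in all 4 panels.

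Glucose uptake and trapping genes were higher in treated cells where they passed. Slc2a1 (ENSMUSG00000028645, chr4:119108711-119137983), the glucose transporter GLUT1, stood, in CPM after TMM scaling of the library sizes, at 156, 93.5 and 98.8 CPM in KD 12 h libraries and 131, 85 and 90.8 CPM in KD 24 h libraries, against 73.4, 49.9 and 78.6 CPM in KD control libraries. In NC cells it stood at 172, 121 and 155 CPM at 12 h and 134, 94.3 and 130 CPM at 24 h, against 124, 74.4 and 66.6 CPM in control. All 6 treated KD libraries lay above the 3 KD controls, and in NC cells the control at 124 CPM lay within the range of either treated group. The log2 fold change was 0.79 ± 0.25 (SE, adjusted p = 0.0368) in KD cells at 12 h, where Slc2a1 rose. It missed the threshold at 0.61 ± 0.25 (SE, adjusted p = 0.157) in KD cells at 24 h, 0.76 ± 0.25 (SE, adjusted p = 0.0531) in NC cells at 12 h and 0.44 ± 0.25 (SE, adjusted p = 0.373) in NC cells at 24 h. With the replicate block it passed in those 3 as well (KD 24 h 0.60, adjusted p = 0.00085; NC 12 h 0.78, adjusted p = 1.4e-05, NC 24 h 0.46, adjusted p = 0.00975). The KD 12 h call was lost without KD control replicate 1 (adjusted p = 0.0685), KD control replicate 2 (0.159) or KD 12 h replicate 1 (0.221). It was also lost with the 6 libraries numbered 2 left out (0.0847). Without KD 12 h replicate 1 its log2 fold change was 0.52.

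Hk2 (ENSMUSG00000000628, chr6:82725025-82774454), the inducible hexokinase that traps glucose at mitochondria, rose in KD cells. It stood at 359, 317 and 262 CPM at 12 h and 328, 313 and 269 CPM at 24 h in KD libraries, against 236, 214 and 188 CPM in KD control libraries, without overlap. NC cells had it at 338, 298 and 312 CPM at 12 h and 283, 287 and 318 CPM at 24 h, against 279, 249 and 261 CPM in control, again without overlap, the nearest libraries being 283 CPM at 24 h and 279 CPM in control. Its log2 fold change was 0.55 ± 0.15 (SE, adjusted p = 0.011) at 12 h and 0.51 ± 0.15 (SE, adjusted p = 0.0283) at 24 h in KD cells. NC cells gave 0.26 ± 0.15 (SE, adjusted p = 0.292) at 12 h and 0.17 ± 0.15 (SE, adjusted p = 0.601) at 24 h. Of these NC 12 h passed with the block (0.26, adjusted p = 0.0317). The KD 12 h call was lost without KD control replicate 3 (adjusted p = 0.0728) or KD 12 h replicate 1 (0.0708). The call also ended with the 6 libraries numbered 2 left out (0.0605). The KD 24 h call was lost without KD control replicate 2 (adjusted p = 0.0741), KD control replicate 3 (0.161), KD 24 h replicate 1 (0.122) or KD 24 h replicate 2 (0.101). It did not pass with no filter on low counts (0.099), with the 6 libraries numbered 2 left out (0.125) or by limma in all 3 TPM settings (0.265 to 0.283). Hk1, the housekeeping hexokinase, was called in NC cells at 12 h alone, at 0.61 ± 0.20 (SE, adjusted p = 0.0495). It stood at 33.5, 29.1 and 23.4 CPM in NC 12 h libraries, against 21.1, 21.1 and 13.9 CPM in NC control libraries. The call was lost without NC control replicate 1 (adjusted p = 0.0543), NC control replicate 2 (0.0658), NC control replicate 3 (0.27), NC 12 h replicate 1 (0.214) or NC 12 h replicate 2 (0.115). This call was also lost with no filter on low counts (0.132), with a filter of 5 CPM (0.0522), in a fit of the compared groups alone (0.14), with the 6 libraries numbered 2 left out (0.135) or by limma in all 3 TPM settings (0.186 to 0.249, log2 fold change 0.41).

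**Figure D3:**
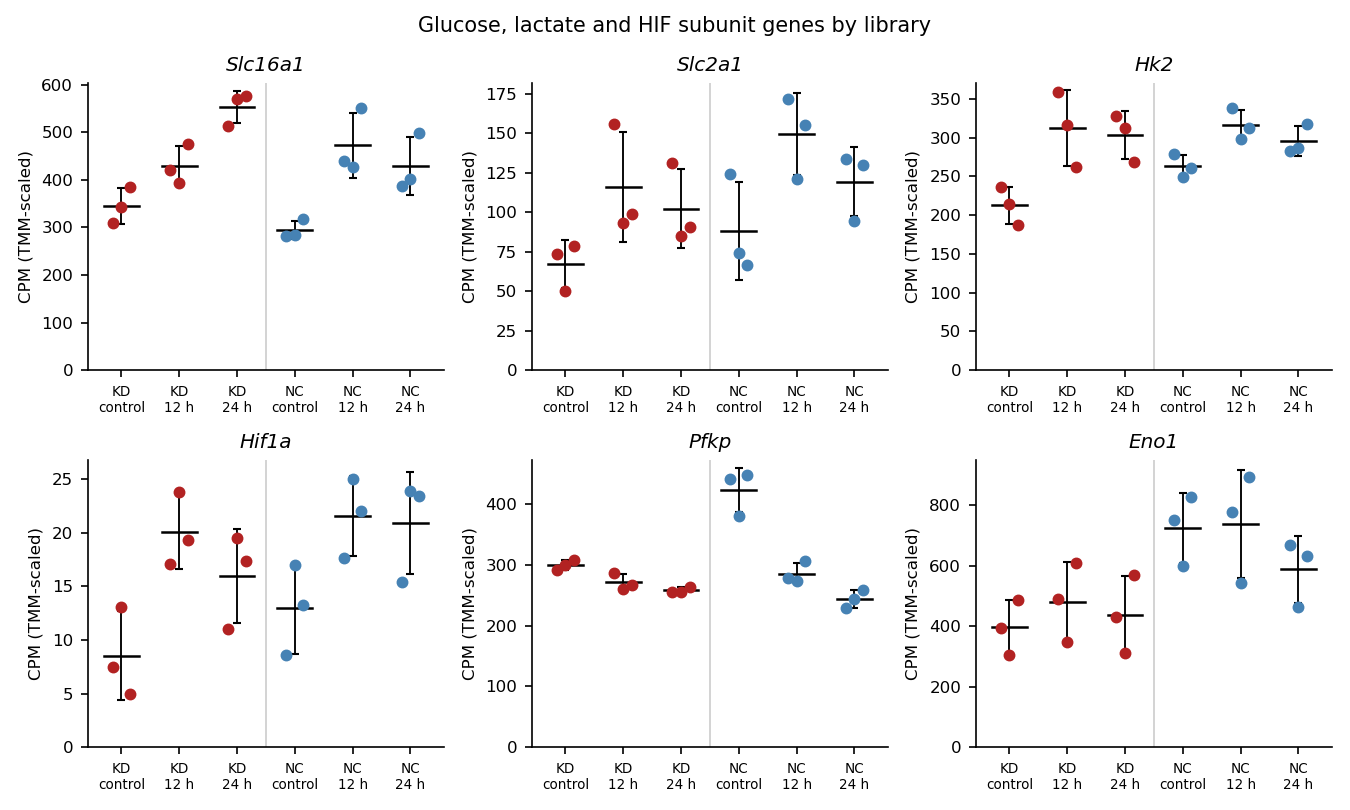
TMM-scaled CPM (y axis, from 0) of 6 genes of glucose entry, lactate transport, HIF-1 alpha and lower glycolysis in each library (points), by group (x axis: KD control, 12 h, 24 h, then NC control, 12 h, 24 h), with group mean and SD (black, n = 3). Slc16a1 is higher in every treated library than in its controls, and the mean of Eno1 is lower in KD than in NC at each time.

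Of the 7 tested hexose phosphate genes, none passed in KD cells at either time, with log2 fold changes from -0.79 to 0.39 at 12 h and from -0.83 to 0.51 at 24 h. At an unadjusted p under 0.05 there were 0 higher and 1 lower at 12 h and 0 higher and 2 lower at 24 h, and the block called Pfkl and Aldoc, as given below. In NC cells Pfkp (ENSMUSG00000021196, chr13:6579768-6648777), the platelet-type phosphofructokinase, fell at both times. It stood at 278, 273 and 306 CPM at 12 h and 229, 244 and 259 CPM at 24 h in NC libraries, against 442, 381 and 447 CPM in NC control libraries. In KD cells it stood at 286, 260 and 267 CPM at 12 h and 256, 256 and 264 CPM at 24 h, against 291, 299 and 308 CPM in control. The NC controls were thus the 3 highest of the 18 libraries, and the NC groups did not overlap. Its log2 fold change was -0.57 ± 0.13 (SE, adjusted p = 0.00425) at 12 h and -0.79 ± 0.13 (SE, adjusted p = 0.000269) at 24 h in NC cells. KD cells gave -0.14 ± 0.13 (SE, adjusted p = 0.535) at 12 h and -0.21 ± 0.13 (SE, adjusted p = 0.368) at 24 h. Both NC calls were kept in every fit without 1 library, and that at 12 h was ended by limma in all 3 TPM settings (adjusted p = 0.0625 to 0.0699).

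Pfkfb3, which makes the activator of phosphofructokinase, was called in NC cells at 24 h (0.87 ± 0.27 SE, adjusted p = 0.0464) with 19, 14.7 and 11.6 CPM, against 7.72, 6.93 and 10 CPM in NC control libraries. That call was lost without NC control replicate 1 (adjusted p = 0.123), NC control replicate 2 (0.183), NC control replicate 3 (0.0557), NC 24 h replicate 1 (0.197) or NC 24 h replicate 2 (0.103). It was also lost with no filter on low counts (0.0673), in a fit of the compared groups alone (0.0991), with the 6 libraries numbered 2 left out (0.215) or by limma in 2 of 3 TPM settings (0.171 to 0.179, log2 fold change 0.21). Pfkl, the liver-type phosphofructokinase and the most abundant one here, had log2 fold changes of -0.39 and -0.52 in KD cells at 12 h and 24 h and -0.24 and -0.57 in NC cells, none past the threshold. It passed with the block in KD cells at 12 h (-0.40, adjusted p = 0.00127) and 24 h (-0.53, adjusted p = 4.87e-05) and in NC cells at 24 h (-0.54, adjusted p = 4.56e-05). Aldoc, the brain-type aldolase, had log2 fold changes of -0.79 and -0.83 in KD cells and -0.44 and -0.83 in NC cells. It passed with the block in the same 3 comparisons (adjusted p = 0.0137 in KD at 12 h, 0.0136 in KD at 24 h and 0.0309 in NC at 24 h). Gpi1, the isomerase after hexokinase, Aldoa, the main aldolase, and Pfkfb4, a relative of Pfkfb3, had log2 fold changes between -0.24 and 0.39 in the 4 comparisons and passed in none.

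In the triose steps 1 of 6 tested genes was called, Pgk1, phosphoglycerate kinase, in KD cells at 12 h (1.22 ± 0.35 SE, adjusted p = 0.0168), at 6.48, 8.32 and 10.3 CPM against 4.06, 4.12 and 2.5 CPM in KD control libraries. These levels rest on few reads. The call was lost without KD control replicate 3 (adjusted p = 0.0946) or KD 12 h replicate 3 (0.0867). The call also ended with the copies added (0.0521, log2 fold change 0.65). Pgam1, Gapdh, the dehydrogenase that opens the triose steps, and Pkm had positive values in all 4 comparisons, from 0.05 to 0.49, and Tpi1 negative ones, from -0.32 to -0.02. None of these passed. With the block Pgam1 passed at KD 12 h (0.48, adjusted p = 1.23e-05), KD 24 h (0.40, adjusted p = 0.000335) and NC 12 h (0.42, adjusted p = 0.000119). Gapdh passed at KD 12 h (0.46, adjusted p = 0.00257) and KD 24 h (0.33, adjusted p = 0.0438). Tpi1, in the other direction, passed at KD 24 h (-0.33, adjusted p = 0.00519) and NC 24 h (-0.35, adjusted p = 0.00312). Eno1 with the block was higher at KD 12 h (0.27, adjusted p = 0.0162) and lower at NC 24 h (-0.31, adjusted p = 0.00928). Pgk1 was also called at KD 24 h (0.99, adjusted p = 0.026).

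At the pyruvate branch the kinase that restrains pyruvate oxidation in mitochondria fell, and the lactate carrier MCT1 rose. Pdk1 (ENSMUSG00000006494, chr2:71873224-71903858), pyruvate dehydrogenase kinase 1, stood at 40.2, 35.1 and 50.2 CPM at 12 h and 44.3, 38.1 and 44.1 CPM at 24 h in KD libraries, against 82.8, 82 and 77.6 CPM in KD control libraries. In NC cells it stood at 47.3, 53.3 and 49.7 CPM at 12 h and 56, 58.6 and 69 CPM at 24 h, against 105, 106 and 115 CPM in control. Every treated library lay below every control library of either line. Pdk1 fell by log2 fold changes of -0.95 ± 0.16 (SE, adjusted p = 0.000122) at 12 h and -0.94 ± 0.16 (SE, adjusted p = 0.000226) at 24 h in KD cells. NC cells gave -1.12 ± 0.16 (SE, adjusted p = 2.5e-05) at 12 h and -0.83 ± 0.15 (SE, adjusted p = 0.00115) at 24 h. All 4 calls were kept in every fit that left out 1 library.

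Slc16a1 (ENSMUSG00000032902, chr3:104638668-104658462), which carries lactate and other monocarboxylates across the membrane, stood at 420, 394 and 475 CPM at 12 h and 514, 569 and 576 CPM at 24 h in KD libraries, against 309, 342 and 384 CPM in KD control libraries. The NC line had it at 439, 428 and 551 CPM at 12 h and 387, 402 and 499 CPM at 24 h, against 283, 285 and 317 CPM in control. Treated libraries lay above their own controls in both lines. The gene rose in KD cells at 24 h (0.68 ± 0.15 SE, adjusted p = 0.00425) and in NC cells at 12 h (0.68 ± 0.15 SE, adjusted p = 0.00367) and 24 h (0.54 ± 0.15 SE, adjusted p = 0.029). In KD cells at 12 h the value was 0.32 ± 0.15 (SE, adjusted p = 0.176), which passed with the block (adjusted p = 0.00272). The NC 24 h call was lost without NC control replicate 1 (adjusted p = 0.0874), NC control replicate 2 (0.0997), NC control replicate 3 (0.0594), NC 24 h replicate 2 (0.0501) or NC 24 h replicate 3 (0.172). It did not pass with no filter on low counts (0.0802), in a fit of the compared groups alone (0.124), with the 6 libraries numbered 2 left out (0.0912) or by limma in all 3 TPM settings (0.257 to 0.273). The KD 24 h call was ended by limma in all 3 TPM settings (adjusted p = 0.0636 to 0.0706).

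Slc16a3, the carrier usually tied to lactate export, had log2 fold changes of -0.24 and -0.28 in KD cells at 12 h and 24 h and -0.15 and -0.55 in NC cells, and passed only with the block at NC 24 h (-0.53, adjusted p = 0.000588). Ldha, lactate dehydrogenase A, lay between -0.19 and 0.02 and passed in no fit of these 4 comparisons that used all libraries.

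The RNA of Hif1a (ENSMUSG00000021109, chr12:73901375-73947530), the oxygen-regulated HIF subunit, was higher in treated KD cells at 12 h. It stood at 17.1, 23.8 and 19.3 CPM at 12 h and 11, 19.5 and 17.4 CPM at 24 h in KD libraries, against 7.47, 13.1 and 4.99 CPM in KD control libraries. NC cells had it at 17.6, 25 and 22 CPM at 12 h and 15.4, 23.9 and 23.4 CPM at 24 h, against 8.56, 17 and 13.3 CPM in control. The 12 h libraries lay above the controls in both lines, in NC cells by a margin of 17.6 against 17 CPM, and the 24 h libraries overlapped them. The log2 fold change was 1.21 ± 0.31 (SE, adjusted p = 0.00886) in KD cells at 12 h, where it rose. It was 0.87 ± 0.32 (SE, adjusted p = 0.0917) in KD cells at 24 h, and 0.73 ± 0.30 (SE, adjusted p = 0.135) and 0.69 ± 0.30 (SE, adjusted p = 0.203) in NC cells at 12 h and 24 h. With the block those 3 passed as well (adjusted p = 0.00172, 0.00347 and 0.00823 in that order). The KD 12 h call was lost without KD control replicate 3 (adjusted p = 0.0728) or KD 12 h replicate 2 (0.0505). This call was also lost by limma in all 3 TPM settings (0.0537 to 0.0741).

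Of its hydroxylases, Egln1 was called lower in all 4 comparisons and Egln3 in 1 comparison. Egln1 (ENSMUSG00000031987, chr8:124908587-124949324), the main HIF prolyl hydroxylase, stood at 252, 160 and 219 CPM at 12 h and 272, 188 and 222 CPM at 24 h in KD libraries, against 368, 301 and 403 CPM in KD control libraries. NC libraries had it at 260, 213 and 259 CPM at 12 h and 235, 221 and 309 CPM at 24 h, against 507, 349 and 402 CPM in control. Treated and control libraries did not overlap within either line. Egln1 fell in all 4 comparisons, with log2 fold changes of -0.76 ± 0.20 (SE, adjusted p = 0.00832) and -0.65 ± 0.20 (SE, adjusted p = 0.0356) in KD cells at 12 h and 24 h. NC cells gave -0.78 ± 0.20 (SE, adjusted p = 0.00887) and -0.72 ± 0.20 (SE, adjusted p = 0.0236) at these times. The NC 12 h call was kept in every fit without 1 library. The KD 12 h call was lost without KD 12 h replicate 2 (adjusted p = 0.0502). The KD 24 h call was lost without KD control replicate 1 (adjusted p = 0.103), KD control replicate 3 (0.115), KD 24 h replicate 2 (0.132) or KD 24 h replicate 3 (0.0857). The NC 24 h call was lost without NC control replicate 1 (adjusted p = 0.0867), NC 24 h replicate 1 (0.0651) or NC 24 h replicate 2 (0.0801). It was also lost in a fit of the compared groups alone (0.0553). Egln3, a hydroxylase that is itself induced by HIF, fell in NC cells at 12 h (-0.64 ± 0.17 SE, adjusted p = 0.0152). It stood at 263, 260 and 296 CPM at 12 h and 335, 337 and 403 CPM at 24 h in NC libraries, against 498, 372 and 405 CPM in NC control libraries. In KD cells it stood at 234, 180 and 219 CPM at 12 h and 327, 245 and 307 CPM at 24 h, against 210, 221 and 303 CPM in control. The NC 12 h libraries lay below the NC controls, and the other 3 treated groups overlapped their own controls. The NC 12 h call was lost without NC control replicate 1 (adjusted p = 0.056) or NC 12 h replicate 1 (0.062). In NC cells at 24 h its log2 fold change was -0.24 ± 0.17 (SE, adjusted p = 0.491), and in KD cells -0.21 ± 0.17 (SE, adjusted p = 0.479) at 12 h and 0.26 ± 0.17 (SE, adjusted p = 0.42) at 24 h.

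Of the mitophagy receptors, Bnip3 (ENSMUSG00000078566, chr7:138890836-138909519), a HIF target that tags mitochondria for removal, fell in NC cells at 24 h (-1.34 ± 0.34 SE, adjusted p = 0.0198). It stood at 97, 88.7 and 177 CPM in NC 24 h and 104, 187 and 156 CPM in NC 12 h libraries, against 177, 380 and 365 CPM in NC control libraries, and 1 of the NC 12 h libraries, but none of the NC 24 h ones, lay above the lowest control. The call was lost without NC control replicate 2 (adjusted p = 0.0938), NC control replicate 3 (0.0815), NC 24 h replicate 1 (0.0933) or NC 24 h replicate 2 (0.109). The call also ended with the 6 libraries numbered 2 left out (0.262) or by limma in all 3 TPM settings (0.0787 to 0.102). With the block Bnip3 also passed at NC 12 h (-1.02, adjusted p = 0.016). In KD cells the log2 fold change was -0.33 at 12 h and -0.75 at 24 h. For Bnip3l, its relative, values lay between -0.53 and -0.28 in the 4 comparisons, none past the threshold.

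Among the 9 tested genes of the other HIF targets none rose. Over all tested genes 4.66% to 7.93% rose, and at such shares 9 genes may well hold none. In KD cells 2 fell at 12 h and 3 at 24 h, and in NC cells 4 fell at each time. These are 22.2%, 33.3%, 44.4% and 44.4% of the 9, where 8.06%, 4.09%, 5.55% and 2.91% of all tested genes fell. Median log2 fold changes were -0.76, -0.61, -0.67 and -1.0 in the same order. Ndrg1 (ENSMUSG00000005125, chr15:66929318-66969640), a stress and differentiation gene used as a hypoxia marker, stood at 413, 277 and 431 CPM at 12 h and 439, 282 and 425 CPM at 24 h in KD libraries, against 700, 519 and 800 CPM in KD control libraries. The NC line had it at 439, 313 and 448 CPM at 12 h and 432, 298 and 463 CPM at 24 h, against 1158, 771 and 1151 CPM in control. Treated and control libraries did not overlap in either line. Its log2 fold changes were -0.85 ± 0.23 (SE, adjusted p = 0.0127) and -0.82 ± 0.23 (SE, adjusted p = 0.025) in KD cells at 12 h and 24 h. NC cells gave -1.36 ± 0.23 (SE, adjusted p = 0.000276) and -1.37 ± 0.23 (SE, adjusted p = 0.00043) at these times. The NC calls were kept in every fit without 1 library. The KD 12 h call was lost without KD control replicate 3 (adjusted p = 0.0606) or KD 12 h replicate 2 (0.0689). The KD 24 h call was lost without KD control replicate 1 (adjusted p = 0.0783), KD control replicate 3 (0.101) or KD 24 h replicate 2 (0.112).

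Ankrd37 (ENSMUSG00000050914, chr8:45996902-46005707), a small ankyrin-repeat gene that HIF induces, had the most negative called value. It stood at 2.38, 3.7 and 3.57 CPM at 12 h and 1.58, 1.26 and 1.43 CPM at 24 h in KD libraries, against 5.76, 7.32 and 5.41 CPM in KD control libraries. NC libraries had it at 1.8, 3.59 and 2.38 CPM at 12 h and 1.52, 3.01 and 1.29 CPM at 24 h, against 5.22, 7.92 and 6.33 CPM in control. No treated library reached its controls, though all rest on few reads. The log2 fold change was -2.10 ± 0.39 (SE, adjusted p = 0.000731) in KD cells at 24 h, -1.31 ± 0.36 (SE, adjusted p = 0.0166) in NC cells at 12 h and -1.72 ± 0.37 (SE, adjusted p = 0.00435) in NC cells at 24 h. At KD 12 h it was -0.94 ± 0.35 (SE, adjusted p = 0.074), which passed with the block (adjusted p = 0.0324). Both 24 h calls were kept in every fit without 1 library, and the NC 12 h call was lost without NC control replicate 2 (adjusted p = 0.0869), NC 12 h replicate 1 (0.0905) or NC 12 h replicate 3 (0.072). It did not pass by limma in all 3 TPM settings (0.0515 to 0.08, log2 fold change -0.82).

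Kdm3a (ENSMUSG00000053470, chr6:71588972-71632990), a histone H3 lysine demethylase, fell at 24 h in both lines. It stood at 13.5, 13.6 and 17.9 CPM in KD 24 h libraries, against 21.1, 26.7 and 27.3 CPM in KD control libraries. NC cells had it at 11.9, 17.2 and 16.1 CPM at 12 h and 10.1, 13.9 and 12 CPM at 24 h, against 22.3, 23.3 and 26.8 CPM in control. These groups did not overlap their controls, whereas the KD 12 h libraries, at 17.5, 19.4 and 25.9 CPM, did. Its log2 fold change was -0.75 ± 0.21 (SE, adjusted p = 0.0274) in KD cells at 24 h. The other values were -0.67 ± 0.21 (SE, adjusted p = 0.0409) in NC cells at 12 h, -1.0 ± 0.22 (SE, adjusted p = 0.00457) in NC cells at 24 h, and -0.26 ± 0.21 (SE, adjusted p = 0.477) in KD cells at 12 h. The NC 24 h call was kept in every fit without 1 library and ended by limma in 1 of 3 TPM settings (adjusted p = 0.0856, log2 fold change -0.58). The KD 24 h call was lost without KD control replicate 2 (adjusted p = 0.0821), KD control replicate 3 (0.0906), KD 24 h replicate 1 (0.119) or KD 24 h replicate 2 (0.1). This call was also lost with no filter on low counts (0.054), with the 6 libraries numbered 2 left out (0.201) or by limma in all 3 TPM settings (0.091 to 0.165, log2 fold change -0.47). The NC 12 h call was lost without NC control replicate 2 (adjusted p = 0.0741), NC control replicate 3 (0.139), NC 12 h replicate 1 (0.193) or NC 12 h replicate 3 (0.0834). It was also lost with no filter on low counts (0.0868), in a fit of the compared groups alone (0.0854), with the 6 libraries numbered 2 left out (0.0678) or by limma in all 3 TPM settings (0.193 to 0.296, log2 fold change -0.36).

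Vegfa (ENSMUSG00000023951, chr17:46016993-46032369), the vascular growth factor, fell in NC cells. It stood at 5.85, 6.83 and 7.53 CPM at 12 h and 9.62, 6.78 and 6.63 CPM at 24 h in NC libraries, against 23.8, 16 and 14.3 CPM in NC control libraries. In KD cells it stood at 5.83, 2.22 and 5.67 CPM at 12 h and 5.6, 4.81 and 4.76 CPM at 24 h, against 10.2, 5.95 and 7.07 CPM in control. The 3 NC controls were the highest of all 18 libraries. The log2 fold change was -1.41 ± 0.31 (SE, adjusted p = 0.00276) at 12 h and -1.24 ± 0.30 (SE, adjusted p = 0.0113) at 24 h in NC cells. KD cells gave -0.76 ± 0.33 (SE, adjusted p = 0.131) at 12 h and -0.60 ± 0.33 (SE, adjusted p = 0.306) at 24 h, where KD 12 h passed with the block (adjusted p = 0.0378). The NC 12 h call was kept in every fit without 1 library and the NC 24 h call was lost without NC control replicate 1 (adjusted p = 0.0663) or NC 24 h replicate 3 (0.0585).

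Mxi1 (ENSMUSG00000025025, chr19:53310518-53375810), a MAX-binding repressor opposed to MYC, fell in KD cells at 12 h. It stood at 37.2, 27.2 and 16.4 CPM at 12 h and 50.3, 41.8 and 34.5 CPM at 24 h in KD libraries, against 61.5, 56.3 and 51.6 CPM in KD control libraries. NC libraries had it at 45.9, 39.7 and 46.2 CPM at 12 h and 45.6, 40.3 and 45.3 CPM at 24 h, against 76.6, 57.2 and 47.8 CPM in control. All treated libraries lay below the controls of their own line. The log2 fold change was -1.07 ± 0.23 (SE, adjusted p = 0.00189) at 12 h and -0.42 ± 0.22 (SE, adjusted p = 0.3) at 24 h in KD cells. NC cells gave -0.46 ± 0.22 (SE, adjusted p = 0.21) at 12 h and -0.47 ± 0.22 (SE, adjusted p = 0.258) at 24 h. The KD 12 h call was kept in every fit without 1 library, and with the block the other 3 passed (adjusted p = 0.0311, 0.0228 and 0.0283 in that order). The remaining 4 tested genes of this group, the collagen prolyl hydroxylases P4ha1 and P4ha2, the adenylate kinase Ak4 and the circadian repressor Bhlhe40, had log2 fold changes from -1.98 to 0.04 in the 4 comparisons and passed in none, also with the block.

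**Figure D4:**
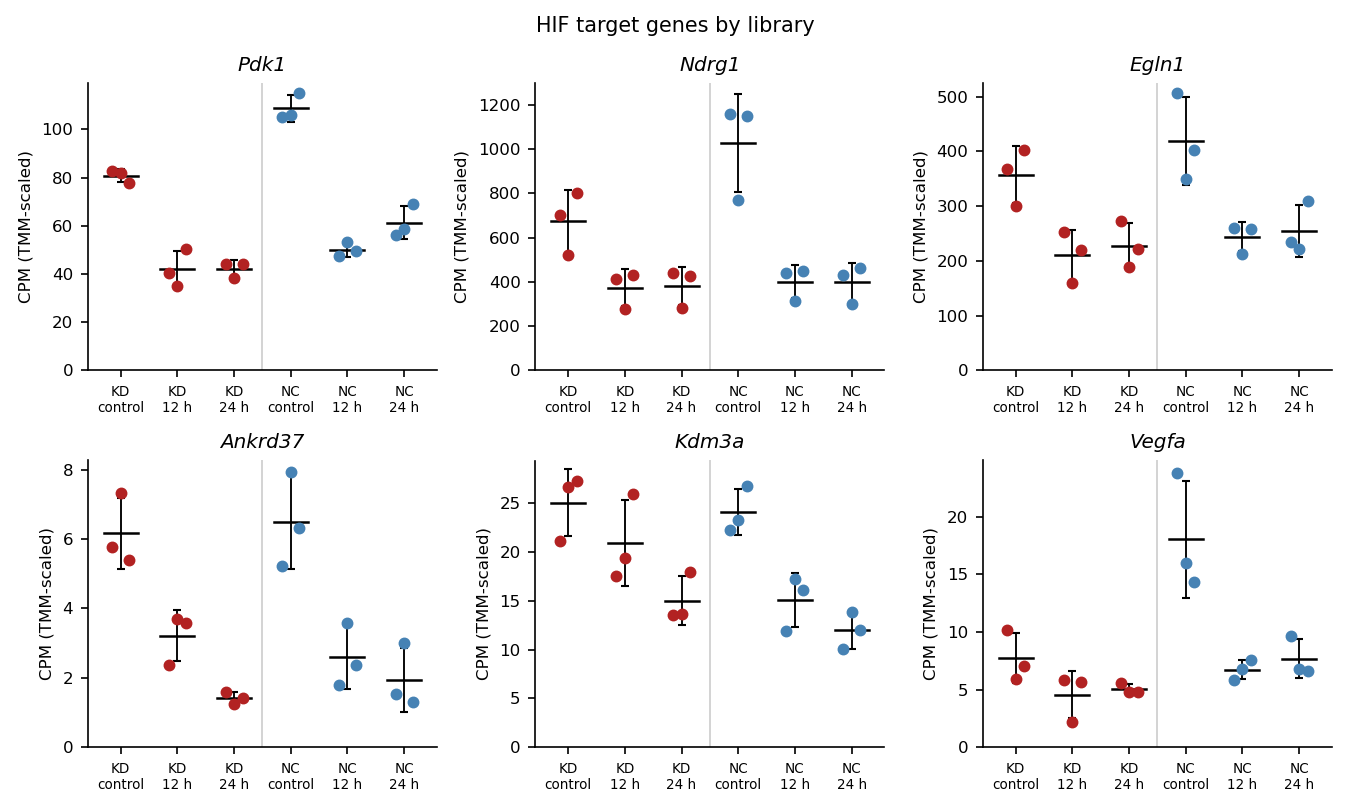
TMM-scaled CPM (y axis, from 0) of 6 HIF target genes in each library (points), by group (x axis: KD control, 12 h, 24 h, then NC control, 12 h, 24 h), with group mean and SD (black, n = 3). For Pdk1 every treated library lies below every control library, and for Vegfa the 3 NC control libraries stand highest.

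HIF binds a short DNA element, ACGTG or GCGTG, and the RefSeq promoter windows (250 bases before the start, build GRCm38.p6) were read for these letters on either strand (CACGT or CACGC on the other), overlapping matches counted once. A window was matched by symbol for 34 of the 37 genes, all but Bnip3l, Ndrg1 and Bhlhe40. The window nearest the annotated gene start was taken for each, whereas shares over all windows count every window of a gene. The windows of Hif1a, Ankrd37 and Ldha belong to starts 6492, 5857 and 4329 bases from the annotated gene start. The letters stood in 26 of the 34 windows (76.5%) and in 38.6% of all 32851 windows. They stood in 68.7% of the 8356 windows with at least 16 CG dinucleotides. The median window of the 34 held 15 CG, against 6 over all windows. Among windows with at least 16 CG, 16 of 17 held the letters, and among those with fewer 10 of 17, where 28.3% of all windows with fewer did. They stood in 7 of 9 windows of genes that fell in a treated comparison, in 6 of 7 of genes that rose and in 11 of 15 of tested genes that did neither. Printed here are 3 genes that fell in both lines, 1 that rose in both and Vegfa, which fell in NC cells. Each runs 5′ to 3′ toward the start, with capitals marking the letters searched. The windows lie at chr2:71872974-71873223 (plus strand, Pdk1), chr8:124949255-124949504 (minus, Egln1), chr6:71632918-71633167 (minus, Kdm3a), chr3:104638414-104638663 (plus, Slc16a1) and chr17:46032378-46032627 (minus, Vegfa).
Pdk1: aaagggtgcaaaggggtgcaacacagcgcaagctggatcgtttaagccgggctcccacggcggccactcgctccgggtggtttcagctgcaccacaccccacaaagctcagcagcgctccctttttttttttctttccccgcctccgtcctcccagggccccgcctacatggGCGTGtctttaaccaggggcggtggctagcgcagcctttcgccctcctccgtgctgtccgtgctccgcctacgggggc
Egln1: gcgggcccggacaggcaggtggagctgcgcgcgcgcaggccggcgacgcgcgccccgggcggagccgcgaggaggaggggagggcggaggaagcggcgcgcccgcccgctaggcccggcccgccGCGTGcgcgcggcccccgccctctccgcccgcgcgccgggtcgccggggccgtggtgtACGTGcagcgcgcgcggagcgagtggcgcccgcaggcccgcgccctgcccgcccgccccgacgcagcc
Kdm3a: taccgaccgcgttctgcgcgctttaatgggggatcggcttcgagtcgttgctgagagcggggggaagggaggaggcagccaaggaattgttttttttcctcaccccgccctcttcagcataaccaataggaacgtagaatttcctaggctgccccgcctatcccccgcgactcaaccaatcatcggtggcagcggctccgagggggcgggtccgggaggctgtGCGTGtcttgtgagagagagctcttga
Slc16a1: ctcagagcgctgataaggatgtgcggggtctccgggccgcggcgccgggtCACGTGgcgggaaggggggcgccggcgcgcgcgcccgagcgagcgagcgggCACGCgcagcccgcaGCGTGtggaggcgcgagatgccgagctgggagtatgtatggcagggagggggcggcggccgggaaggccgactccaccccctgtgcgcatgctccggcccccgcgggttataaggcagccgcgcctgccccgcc
Vegfa: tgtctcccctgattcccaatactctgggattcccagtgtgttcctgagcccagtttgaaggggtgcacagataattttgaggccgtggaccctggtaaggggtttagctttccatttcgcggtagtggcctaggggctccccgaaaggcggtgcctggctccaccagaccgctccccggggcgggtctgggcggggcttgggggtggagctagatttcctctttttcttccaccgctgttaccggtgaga
Pdk1 and Kdm3a held 1 match each, Egln1 2 and Slc16a1 3, while Vegfa held none in this window. A match describes the letters only, and binding was not measured.

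Between the treated times no member passed in either line without the replicate block, and some passed with it. At 24 h against 12 h, edgeR called 0 of 34 in KD cells, where 4.28% of all tested genes were called (2.81% higher, 1.46% lower). It called 0 of 34 in NC cells, where 2.76% were (1.63% higher, 1.13% lower). At an unadjusted p under 0.05 there were 3 higher and 2 lower in KD cells and 2 higher and 1 lower in NC cells, and DESeq2 and limma called 0. With the replicate block 3 passed in KD cells, all higher at 24 h: Mxi1 (0.67, adjusted p = 0.00232), Slc16a1 (0.37, adjusted p = 0.00148) and Egln3 (0.47, adjusted p = 0.00148), where 12.3% of all tested genes were called. In NC cells 6 passed with the block, where 11.5% of all genes did, Egln3 higher (0.39, adjusted p = 0.00986) and the others lower. These were Hk1 (-0.55, adjusted p = 0.0149), Slc16a3 (-0.39, adjusted p = 0.0187), Pfkl (-0.32, adjusted p = 0.0252), Eno1 (-0.31, adjusted p = 0.0122) and Tpi1 (-0.30, adjusted p = 0.0198). Without KD 12 h replicate 1 the KD count was 1.

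Between the lines, every member but 1 that was called without the replicate block was lower in KD. Over all tested genes more were also called lower than higher in KD. In control cells 3 of 34 were lower and 0 higher, where 2.06% of all tested genes were called, 0.763% higher and 1.3% lower. On average over the 3 times, 4 were lower and 1 higher, where 9.99% were called, 4.01% higher and 5.98% lower. The averaged count is 14.7% of the 34. With the replicate block 20 were called on average (5 higher, 15 lower), where 24.4% of all tested genes were. In control it called 7, where 9.35% were, and the numbers were not taken as paired in either. The sum of all 37 genes was 0.598% to 0.672% of counts in KD control and 0.72% to 0.844% in NC control libraries. It was 0.554% to 0.672% in KD and 0.634% to 0.716% in NC libraries at 12 h, and 0.553% to 0.642% in KD and 0.577% to 0.676% in NC libraries at 24 h. Markers of neurons, of which Tubb3 held nearly all the counts, summed to 3.32 to 10.1 CPM in KD and 0.782 to 3.11 CPM in NC libraries, and microglia and macrophage markers were higher in KD than in NC at each time, as given above. Fibroblast and endothelial markers were higher in KD control than in NC control. The part of these markers in the line differences was not tested. The knockdown label and any other difference between the lines cannot be told apart.

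Vegfa, with the library values given above, was lower in KD control than in NC control libraries without overlap (log2 fold change -1.22 ± 0.30 (SE, adjusted p = 0.0311)) and lower on average over times (-0.79 ± 0.19 SE, adjusted p = 0.00748). Egln3 stood at 210, 221 and 303 CPM in KD control libraries, against 498, 372 and 405 CPM in NC control libraries, also without overlap (-0.80 ± 0.17 SE, adjusted p = 0.0118; over times -0.49 ± 0.10 (SE, adjusted p = 0.00231)). Pfkp was lower in control cells (-0.50 ± 0.13 SE, adjusted p = 0.0419). In control cells the Vegfa call was lost without KD control replicate 2 (adjusted p = 0.154), KD control replicate 3 (0.132), NC control replicate 1 (0.145) or NC control replicate 2 (0.051). The call also ended in a fit of the compared groups alone (0.07), with the 6 libraries numbered 2 left out (0.145) or by limma in 2 of 3 TPM settings (0.0582 to 0.0785, log2 fold change -0.71). That of Egln3 was lost without KD control replicate 1 (adjusted p = 0.0952), KD control replicate 2 (0.0627) or NC control replicate 1 (0.0512). It did not pass in a fit of the compared groups alone (0.07). That of Pfkp was lost without KD control replicate 1 (adjusted p = 0.177), KD control replicate 2 (0.113), KD control replicate 3 (0.117), NC control replicate 1 (0.101) or NC control replicate 3 (0.15). This call was also lost with no filter on low counts (0.26), in a fit of the compared groups alone (0.212), with the 6 libraries numbered 2 left out (0.0865) or by limma in all 3 TPM settings (0.337 to 0.348).

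Eno1 (ENSMUSG00000063524, chr4:150236721-150248879), the enolase of lower glycolysis, was lower in KD averaged over times (-0.64 ± 0.14 SE, adjusted p = 0.00456). It stood at 394, 306 and 487 CPM in KD control, 488, 346 and 608 CPM in KD 12 h and 431, 312 and 568 CPM in KD 24 h libraries. In NC cells it stood at 750, 599 and 825 CPM in control, 778, 543 and 893 CPM at 12 h and 668, 462 and 632 CPM at 24 h. Control libraries of the lines did not overlap, and those at 12 h and 24 h did. Pdk1 was lower in KD as well (-0.41 ± 0.09 SE, adjusted p = 0.00453), and Aldoc (ENSMUSG00000017390, chr11:78322968-78327781) was higher (0.57 ± 0.17 SE, adjusted p = 0.038).

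Aldoc stood at 12.4, 12.3 and 13.1 CPM in KD control, 7.34, 5.73 and 8.83 CPM in KD 12 h and 6.48, 5.65 and 9.29 CPM in KD 24 h libraries. It stood at 7.93, 8.74 and 6.74 CPM in NC control, 5.63, 3.41 and 8.32 CPM in NC 12 h and 3.55, 4.71 and 4.79 CPM in NC 24 h libraries. The lines did not overlap in control and at 24 h, and overlapped at 12 h. The averaged calls of Vegfa, Egln3, Eno1 and Pdk1 were kept in every fit without 1 library. That of Aldoc was lost without KD control replicate 1 (adjusted p = 0.0566), KD control replicate 3 (0.0575), KD 12 h replicate 1 (0.0557), KD 12 h replicate 3 (0.0811), KD 24 h replicate 3 (0.0853), NC control replicate 3 (0.068), NC 12 h replicate 1 (0.0648), NC 12 h replicate 2 (0.0572) or NC 24 h replicate 1 (0.0676). It was also lost with the 6 libraries numbered 2 left out (0.0615). The averaged call of Vegfa was ended with the 6 libraries numbered 2 left out (adjusted p = 0.0648), and that of Pdk1 with the 6 libraries numbered 2 left out (adjusted p = 0.0594) or by limma in all 3 TPM settings (0.176 to 0.186, log2 fold change -0.27).

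**Figure D5:**
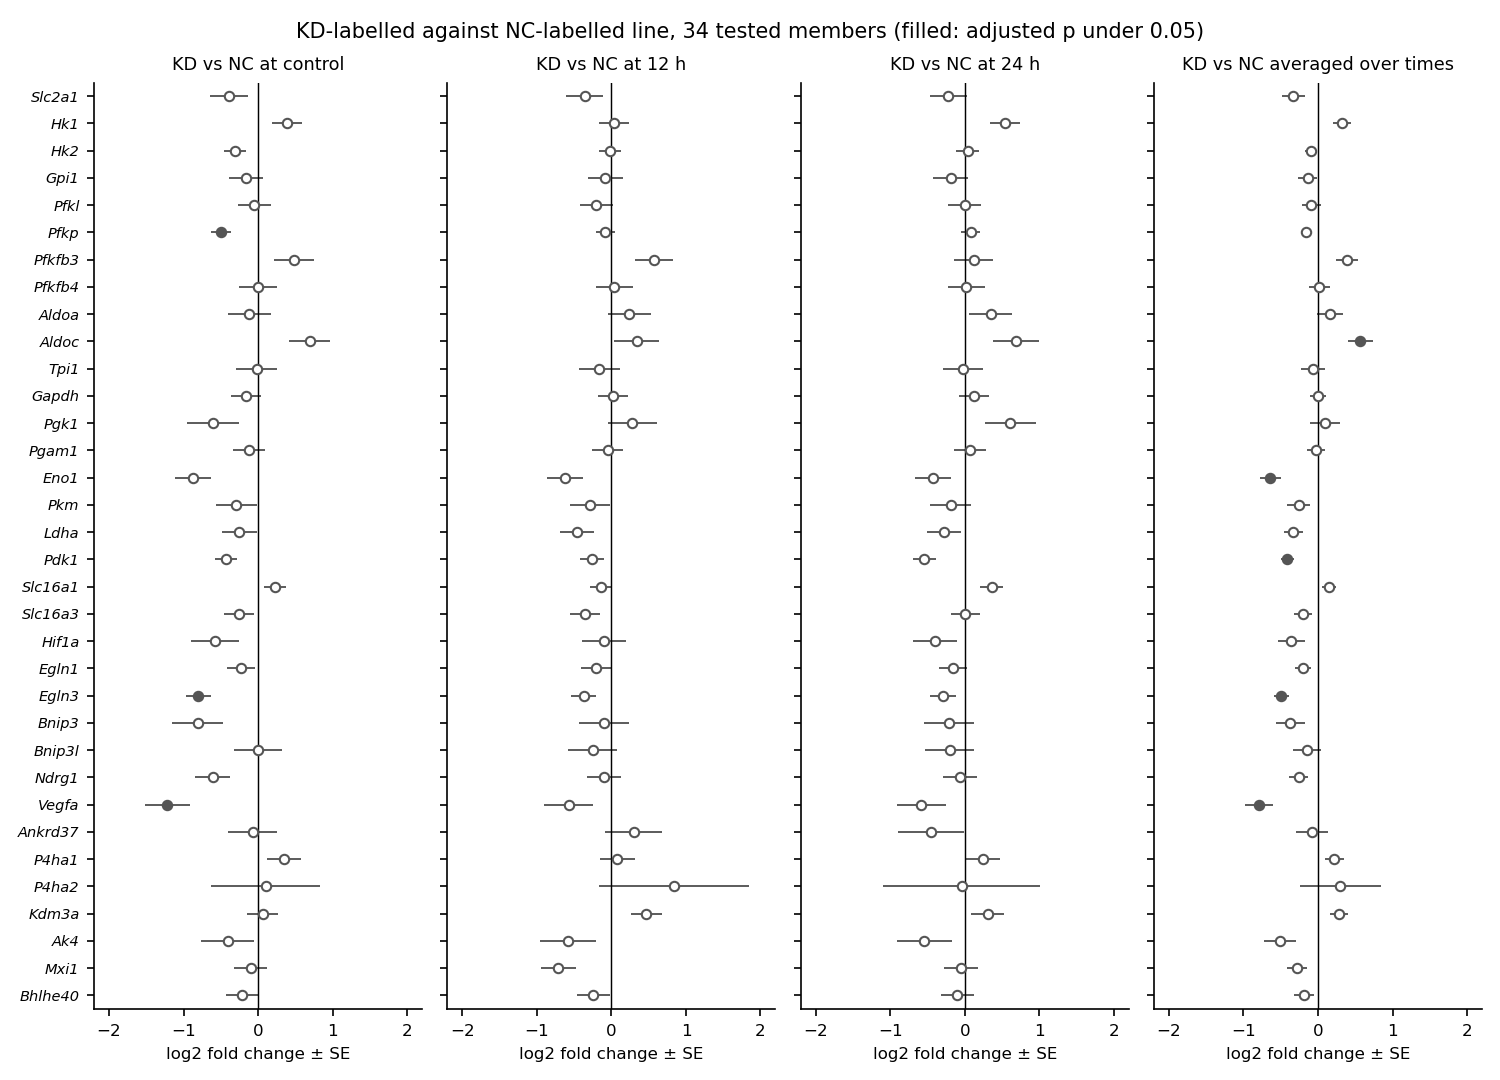
Log2 fold change with its standard error (x axis), KD over NC, of the 34 tested genes (y axis, by role), in control, at 12 h, at 24 h and averaged over the 3 times. Filled points passed an adjusted p of 0.05 without the replicate block: 3 in control, 0 at 12 h and at 24 h, and 5 in the average.

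At 12 h and at 24 h edgeR called 0 of 34 between the lines, where 1.6% of all tested genes were called at 12 h (0.5% higher, 1.1% lower) and 1.39% at 24 h (0.469% higher, 0.925% lower). At an unadjusted p under 0.05, 2 were higher and 3 lower in KD at 12 h, and 3 higher and 1 lower at 24 h. DESeq2 called 0 at 12 h and 1 at 24 h, Pdk1 (-0.53, adjusted p = 0.0298), and limma called 0. With the replicate block 4 were called at 24 h, where 9% of all tested genes were and the numbers were not taken as paired. At 12 h, where it called 10.9% of all tested genes, 6 were lower in KD, namely Eno1 (-0.62, adjusted p = 2.06e-06), Mxi1 (-0.74, adjusted p = 0.00108), Egln3 (-0.38, adjusted p = 0.0153), Slc16a3 (-0.35, adjusted p = 0.039), Ldha (-0.45, adjusted p = 0.0409) and Slc2a1 (-0.38, adjusted p = 0.0469). Without KD 12 h replicate 1 the count at 12 h was 1.

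Whether the response to treatment differed between the lines was tested as the KD response minus the NC response. By edgeR 0 of 34 passed at 12 h, where 0.075% of all tested genes were called (0.0625% higher, 0.0125% lower). It was also 0 at 24 h, where 0.0313% were (0.025% higher, 0.00625% lower). By this fit the calls made in one line alone are not shown to differ from the other line. At an unadjusted p under 0.05, 1 was more positive in KD at 12 h and 3 at 24 h, and none more negative. DESeq2 called 0 at 12 h and 1 at 24 h, and limma 0 at either. The values of Pfkp were 0.42 ± 0.18 (SE, adjusted p = 0.817) at 12 h and 0.58 ± 0.18 (SE, adjusted p = 0.584) at 24 h, which DESeq2 called (0.58, adjusted p = 0.0223). Those of Ndrg1 were 0.51 ± 0.32 (SE, adjusted p = 0.999) and 0.55 ± 0.32 (SE, adjusted p = 1), and those of Vegfa 0.65 ± 0.45 (SE, adjusted p = 0.999) and 0.64 ± 0.45 (SE, adjusted p = 1). With the replicate block, whose numbers were not taken as paired here, Pfkp and Ndrg1 passed at both times and no other member did, where 2.07% of all tested genes were called at 12 h and 1.21% at 24 h. Pfkp had 0.42 (adjusted p = 0.0467) at 12 h and 0.58 (adjusted p = 0.00417) at 24 h, and Ndrg1 0.50 (adjusted p = 0.00648) and 0.55 (adjusted p = 0.00413), so the values of both were more negative in NC than in KD. For Pdk1 the edgeR values were 0.16 ± 0.22 (SE, adjusted p = 0.999) and -0.11 ± 0.22 (SE, adjusted p = 1).

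The 3 members not tested had too few reads. Adm, the vasodilator peptide adrenomedullin and a HIF target, had 37 counts in all, at 0.213, 0 and 0.208 CPM in KD control and 1.46, 1.32 and 2.25 CPM in NC control libraries, and 0 to 0.595 CPM in the 12 treated libraries. Pfkm, the muscle phosphofructokinase, had 13 counts and Eno2 4. A second ID with the symbol Aldoa had 26 counts and was not tested either.

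Other genes of the same pathways were read from 5 lists that hold none of the 37, and named where they were among the 3 lowest adjusted p of their list and called. Of the 55 such calls, 32 were kept in every fit that left out 1 library, and values are given for those only, a restriction chosen after the values were seen. The lists were chosen with earlier results of these data known, so their shares called are not independent of these data. Of 7 pentose phosphate genes, all tested, 3 rose in KD cells at 12 h and 1 at 24 h. In NC cells 2 rose at 12 h and 1 at 24 h, and none fell in either line. The shares called were 42.9%, 14.3%, 28.6% and 14.3%, where 7.93%, 5.5%, 6.69% and 4.66% of all tested genes rose and 2.91% to 8.06% fell. G6pdx, glucose 6-phosphate dehydrogenase and the entry to that pathway, rose in all 4 comparisons, by log2 fold changes of 1.17 ± 0.22 (SE, adjusted p = 0.000506) and 1.19 ± 0.22 (SE, adjusted p = 0.00071) in KD cells at 12 h and 24 h. The NC values were 1.11 ± 0.22 (SE, adjusted p = 0.00121) and 1.06 ± 0.22 (SE, adjusted p = 0.00293) at these times. Pgd, the next dehydrogenase, rose in NC cells at 12 h (0.95 ± 0.22 SE, adjusted p = 0.0051), and Taldo1, transaldolase, rose in KD cells at 12 h (1.04 ± 0.24 SE, adjusted p = 0.00372).

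Of 11 tested other glycolytic isoenzymes and hexose transporters, 2 rose and 2 fell in KD cells at 12 h and 1 rose at 24 h. In NC cells 1 fell at 12 h, and edgeR called none at 24 h, where 1 was higher and 1 lower at an unadjusted p under 0.05. The shares called were 36.4%, 9.09%, 9.09% and 0%, against 16%, 9.59%, 12.2% and 7.57% of all tested genes. Hk3, the hexokinase of myeloid cells, rose in KD cells at 12 h (1.17 ± 0.22 SE, adjusted p = 0.000523). Slc2a8, an intracellular hexose transporter, fell in NC cells at 12 h (-2.38 ± 0.47 SE, adjusted p = 0.00106). Of 11 tested genes of pyruvate entry to mitochondria, 1 rose in each of KD 12 h, KD 24 h and NC 12 h and none fell. Of 15 tested genes of HIF subunits and oxygen sensing, 1 rose and 1 fell at KD 12 h, 1 rose at KD 24 h, 1 rose at NC 12 h, and 1 rose and 1 fell at NC 24 h. Each of these 9 calls was lost without at least 1 library. In the order KD 12 h, KD 24 h, NC 12 h and NC 24 h, the shares called were 9.09%, 9.09%, 9.09% and 0% of the 11. They were 13.3%, 6.67%, 6.67% and 13.3% of the 15, against 16%, 9.59%, 12.2% and 7.57% of all tested genes.

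Of 28 tested other hypoxia-induced genes, 6 rose and 6 fell at KD 12 h, and 6 rose and 5 fell at KD 24 h. In NC cells 5 rose and 6 fell at each time. The shares called were 42.9%, 39.3%, 39.3% and 39.3%, against 16%, 9.59%, 12.2% and 7.57% of all tested genes. Hilpda, an inhibitor of lipid droplet breakdown, rose at KD 12 h (1.29 ± 0.17 SE, adjusted p = 6.79e-06), KD 24 h (1.26 ± 0.17 SE, adjusted p = 1.69e-05) and NC 12 h (0.99 ± 0.16 SE, adjusted p = 0.000149). Ier3, an immediate early gene, rose at KD 12 h (1.55 ± 0.23 SE, adjusted p = 3.11e-05), NC 12 h (1.68 ± 0.23 SE, adjusted p = 1.63e-05) and NC 24 h (1.03 ± 0.22 SE, adjusted p = 0.00463). Fosl2, an AP-1 subunit, rose at KD 24 h (1.48 ± 0.17 SE, adjusted p = 1.92e-06) and NC 12 h (1.04 ± 0.17 SE, adjusted p = 0.000142). Zfp395 fell at KD 12 h (-1.61 ± 0.17 SE, adjusted p = 4.05e-07), KD 24 h (-1.36 ± 0.17 SE, adjusted p = 5.59e-06) and NC 24 h (-0.76 ± 0.17 SE, adjusted p = 0.00457). Ddit4, an inhibitor of mTORC1, fell at NC 24 h (-1.58 ± 0.23 SE, adjusted p = 6.74e-05). At 24 h against 12 h, Hilpda (-0.97 ± 0.16 SE, adjusted p = 0.00103) and Plin2, a lipid droplet coat gene (-0.92 ± 0.14 SE, adjusted p = 0.000646), fell in NC cells.

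Between the lines, 5 of these 28 were lower in KD control than in NC control cells and 0 higher, and 4 were lower and 0 higher at 12 h. At 24 h 1 was lower and 1 higher, and 9 were lower and 1 higher on average over times. The shares called were 17.9%, 14.3%, 7.14% and 35.7%, against 2.06%, 1.6%, 1.39% and 9.99% of all tested genes. At an unadjusted p under 0.05 the counts higher in KD were 1 in control and 2 at 12 h. Hilpda was lower in KD in control (-1.59 ± 0.17 SE, adjusted p = 4.1e-06), at 12 h (-1.29 ± 0.16 SE, adjusted p = 0.000155) and on average (-1.08 ± 0.09 SE, adjusted p = 9.69e-08). Ero1l, an oxidase of the endoplasmic reticulum, was lower in control (-1.79 ± 0.26 SE, adjusted p = 0.00027), a call ended by limma in 1 of 3 TPM settings (adjusted p = 0.0589), and on average (-1.26 ± 0.15 SE, adjusted p = 6.75e-06). Ddit4 was lower on average (-0.93 ± 0.13 SE, adjusted p = 4.91e-05).

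In the other lists, Pdk3, a relative of Pdk1 (0.75 ± 0.14 SE, adjusted p = 0.000853), and Pdp2, a phosphatase that reverses the action of the PDK enzymes (0.45 ± 0.10 SE, adjusted p = 0.00441), were higher in KD on average over times. Dlat, a pyruvate dehydrogenase subunit (-0.55 ± 0.11 SE, adjusted p = 0.00165), and Adpgk, an ADP-dependent glucokinase (-0.51 ± 0.09 SE, adjusted p = 0.000673), were lower, the last ended by limma in all 3 TPM settings (adjusted p = 0.0633 to 0.0693, log2 fold change -0.31). No pentose phosphate gene was called between the lines by edgeR in control, at 12 h, at 24 h or on average. None had an unadjusted p under 0.05 there. Over all tested genes 2.06%, 1.6%, 1.39% and 9.99% were called in that order.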

How the data were processed

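The build GRCm38 and the tools HISAT2 2.2.0, featureCounts, bcl2fastq and DESeq2 are listed, with no roles given, in the submitters' processing notes. The sources used here do not give whether counting used strand. The authors deposited raw read counts per gene and TPM values, and the deposited TPM equals counts over the deposited gene length scaled within each library.

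Counts were fitted with edgeR 4.0.16 (R 4.3.3) by the quasi-likelihood test with TMM scaling in 1 model over all 18 libraries and 6 groups, after a filter on low counts (minimum count 10), which left 15996 genes. All adjusted p-values without another tool named are from this edgeR fit, and SE is the standard error of the log2 fold change. DESeq2 1.42.0 and limma 3.58.1 on log2(TPM + 1) and log2(TPM + 0.1) were alternatives, and fold changes of low genes are understated on the log2 scale with a pseudocount. Library totals of 4361313 to 6008810 counts limit what is seen of low genes. The fitting script was also run on simulated counts, with levels and spreads taken from the fit to these data. The simulated libraries carried no shared deviations by replicate number. The 37 genes and all lists were chosen with earlier results of these data known. Library values are given for the genes called in a comparison, at most the 6 with the lowest adjusted p each, and for Hif1a and Vegfa, and genes of other lists are named as stated beside them. Separate cultures are not stated for the libraries of a group, and p-values then cover only their spread, which may be technical. Libraries with the same replicate number deviated together: each same-number correlation of deviations from the group means was over 0.1 for the 6 time comparisons made inside a line and for KD against NC at 12 h, which are therefore taken as paired, while the lowest was 0.07 for KD against NC in control and 0.095 at 24 h. The other correlations between the lines were 0.273 and 0.444 in control and 0.166 and 0.372 at 24 h. The lowest in a comparison taken as paired was 0.108, for NC control with NC 24 h. The limit of 0.1 therefore divided similar values, and the comparisons not taken as paired are not shown to be unpaired. This block comes from the data, since the labels do not explain the numbers. Calls given without the block leave this pairing out, and the block results are given beside them. Promoter sequences are from RefSeq (GRCm38.p6), and gene positions and merged exon lengths from the GENCODE M21 annotation of GRCm38.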

Additional observations from a re-analysis of the deposited data

How the results depend on the processing

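The counts of the 34 genes called were checked under each alternative, and no value reported changed its direction in a called comparison. With the replicate block the counts became 16 (KD 12 h against control), 16 (KD 24 h), 3 (KD 24 h against 12 h), 16 (NC 12 h against control), 18 (NC 24 h), 6 (NC 24 h against 12 h) and 6 (KD against NC at 12 h), as given in the report. In comparisons whose numbers were not taken as paired, the block called 7 in control, 4 at 24 h, 20 on average over times, 2 for the difference of responses at 12 h and 2 at 24 h. All 43 calls were kept under the block, by DESeq2 and with RLE scaling, 42 with a filter of 5 CPM, 42 with copies added, 36 with no filter on low counts and 28 of 42 to 30 of 43 by limma on TPM. Limma on log2(TPM + 0.1) called 4 genes at KD 24 h. The fit of the compared groups alone kept 30 of 38 calls and called 0 between the lines in control; it has no value for the average. DESeq2 called 1 at KD against NC at 24 h and 1 for the difference of responses at 24 h. With the 6 libraries numbered 2 left out, 29 of 43 calls were kept and 2 genes differed on average over times. Leaving out 1 library at a time gave 4 to 7 calls (KD 12 h), 3 to 7 (KD 24 h), 0 to 1 (KD 24 h against 12 h), 6 to 10 (NC 12 h), 6 to 9 (NC 24 h), 0 to 2 (KD against NC in control) and 0 to 1 (KD against NC at 12 h). Between the lines in control the count was 0 without KD control replicate 2 or NC control replicate 1, and 1 without KD control replicate 1 or 3. On the TPM scale the median over all genes shifted by -0.22 (KD 24 h against 12 h), -0.16 (NC 24 h against 12 h), 0.14 (KD against NC at 12 h), 0.12 (KD 12 h) and -0.12 (NC 24 h) with log2(TPM + 0.1), so its changes are relative to these. The share of higher calls over all genes was 34.2% by limma on log2(TPM + 1) and 65.8% by edgeR for KD 24 h against 12 h, 18.5% and 59.2% for NC 24 h against 12 h, 45.2% and 57.4% for KD 24 h, 42.1% and 61.5% for NC 24 h, 61.3% and 49.6% for KD 12 h, 63.7% and 40.2% for the lines averaged over times, 47.5% and 37% for the lines in control, 53.2% and 31.2% at 12 h, 61.7% and 33.6% at 24 h, and 62.5% and 83.3% for the difference of responses at 12 h. The causes were not tested.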
